A study of Mus musculus with 2 samples.

Results

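Cluster 6 is a set of 251 cells of colon epithelium, 8.14% of the 3082 cells that the authors sorted into 12 clusters numbered 0 to 11. It is read here from the column headed 6 in the authors' table of cluster averages, which gives 17044 gene symbols in UMIs (unique molecular identifiers, counted RNA molecules) per 10000 UMIs of a cell. The cells came from wild-type C57BL/6 mice, and colon epithelium was taken 2 weeks after irradiation. There was 1 group with 2 libraries, labelled WT-C-TP-1 Lib1 and Lib2, and the series' title places them in work on colonoids (organoids of colon crypts) transplanted after radiation injury. Neither the graft origin of any cell nor whether the 2 libraries are separate animals is in the labels. The columns do not separate the libraries, so there was no replicate, no test was possible, and cell barcodes shared between the libraries could not be counted. The authors drew the clusters from these same genes, so the differences below describe cluster 6 and support nothing further. It is set beside cluster 2, cluster 7 and the mean of the 11 other clusters.

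The colon is lined by crypts. Stem cells near the crypt base divide under Wnt signals, and Notch signals between neighbours direct daughter cells toward absorptive colonocytes or toward secretory cells, which include goblet, enteroendocrine and tuft cells. Tuft cells are rare chemosensory cells that detect parasites and microbial metabolites, and DCLK1, a microtubule-associated kinase, is their usual marker in the mouse. Slc12a2 encodes the cotransporter NKCC1, which loads chloride into secreting crypt cells. Ccnd1 encodes cyclin D1, which drives cells out of G1. Rn7sk is 7SK, a small nuclear RNA made by RNA polymerase III that holds the elongation factor P-TEFb inactive.

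The cells of cluster 6 were shallow. A gene with 1 UMI in 1 cell has an average that returns that cell's UMI total, and such values gave the totals of 236 of the 251 cells of cluster 6 (94.0%), of 319 of 352 cells of cluster 2 and of 238 of 247 cells of cluster 7. The median total was 2221 UMIs in cluster 6, while cluster 2 had 13262 and cluster 7 had 19405.5. In cluster 6 the totals ran between 513 and 39401, with an interquartile range of 1239 to 3485. Cells under 1000 UMIs made up 19.1% of the identified cells of cluster 6 (exact Clopper-Pearson 95% interval 14.3% to 24.7%), with 7.52% for cluster 2 and 0.420% for cluster 7. Cells over 10000 UMIs made up 2.54% in cluster 6 (0.939% to 5.45%), with 80.6% for cluster 2 and 87.4% for cluster 7. Cluster 5 was the other shallow cluster, with a median of 1375. Cluster 6 had 13307 genes above 0, whereas cluster 2 had 14903 and cluster 7 had 15021. A value of 0 allows up to the level of 3 UMIs, which is 0.0720 per 10000 for cluster 6, 0.0181 for cluster 2 and 0.0128 for cluster 7. These limits and all intervals cover counting error only, and RNA free in the droplets was not measured.

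**Figure D1:**
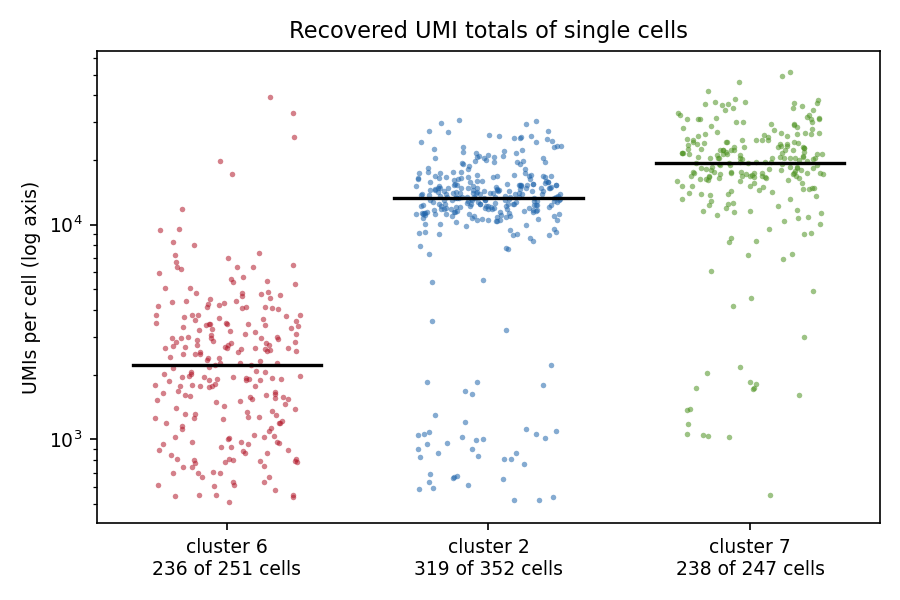
UMI totals of single cells recovered in cluster 6, cluster 2 and cluster 7, on a log axis. Each point is 1 cell and the black lines are the medians, 2221, 13262 and 19405.5 UMIs. Most cells of cluster 6 lie below the bulk of both other clusters.

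The 4 genes that mark cluster 6 reached their highest value there, but by different margins. Slc12a2 was at 2.18 UMIs per 10000 in cluster 6 (approximate Poisson 95% interval 1.75 to 2.68), with 1.04 for cluster 2, 1.58 for cluster 7 and 1.97 in cluster 0. In the other clusters Slc12a2 lay between 0.00665 in cluster 8 and 0.806 in cluster 9, and its level in cluster 0 lies within the interval of cluster 6. Ccnd1 was at 1.37 in cluster 6 (1.04 to 1.78), with 0.617 for cluster 2, 0.877 for cluster 7 and at most 0.608 in the rest, the value of cluster 9. Dclk1 was at 1.12 in cluster 6, with 0.0023 for cluster 2 and 0 for cluster 7. It reached 0.0247 in cluster 1 and 0.0020 in cluster 4 and was listed at 0 in clusters 0, 3, 5, 8, 9, 10 and 11. Against the level of 3 UMIs in cluster 7, Dclk1 was at least 86.9-fold higher in cluster 6. Rn7sk was at 11.9 in cluster 6 (10.9 to 12.996), while cluster 2 had 0.809 and cluster 7 had 1.14. The next highest were cluster 0 with 1.98 and cluster 9 with 1.92, and the lowest was cluster 11 with 0.185. Cluster 6 thus stood apart from every other cluster in Dclk1 and Rn7sk, while Slc12a2 and Ccnd1 were graded.

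An average alone cannot tell a few cells with much of an RNA from many cells with little. Averages were therefore traced to single cells. A low average is a sum of whole UMIs over cell totals, and for 3779 of the 13307 genes detected in cluster 6 (28.4%) only 1 sum over at most 4 identified cells fitted it. Of these, 1744 genes lay in 1 cell, 918 in 2, 651 in 3 and 466 in 4. For genes of cell type lists the search was then extended over the cells that already shared genes of the list and at most 2 others. Where several sums fitted, the one with the fewest UMIs was taken. For genes placed by this wider search, the absence from other cells is therefore set in part by the search itself. A cell of cluster 6 is called a class cell below where at least 3 genes of 1 list lay in it, and it is named by its UMI total.

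The search found 15 such cells in cluster 6 (5.98% of 251, exact 95% interval 3.38% to 9.67%). The tuft list gave 10 of them (3.98%, 1.93% to 7.20%), the enteroendocrine list 3 (1.20%, 0.247% to 3.45%), the plasma cell list 1 and the mast cell list 1 (0.398% each, 0.0101% to 2.20%). These intervals treat the pooled cells as independent and do not cover what the search misses or adds. The shares are of all 251 cells, though totals were identified for 236. From sums over at most 4 cells alone, without the wider search, there were 8 class cells, of which 3 were tuft (the cells 635, 1470 and 4751), 3 enteroendocrine, 1 plasma and 1 mast. The macrophage, T and NK cell, and neutrophil lists gave 0 cells, with 7 of 12, 3 of 3 and 4 of 8 detected genes solved, and 1 cell held 2 macrophage genes. These are cells found by this arithmetic, so cells whose total was not identified or whose genes were not solved are missing. Some totals are whole parts of larger ones and ambiguous, and with all of these kept there were 17 class cells, of which 10 were tuft, 4 enteroendocrine, 2 plasma and 1 mast. The class cells had a median of 1470 UMIs, against 2275 in the 221 other identified cells.

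The 10 cells with tuft genes had totals of 583, 635, 698, 845, 949, 1266, 1470, 1505, 1808 and 4751 UMIs. Dclk1 was placed only by the wider search, among cells picked for other tuft genes. In the sum with the fewest UMIs it lay in 8 of the 10 cells, with 35 UMIs in all. The cells 1266 and 1808 held 7 UMIs of Dclk1 each, the cells 845 and 4751 held 5 each, the cells 635, 1470 and 1505 held 3 each, and the cell 698 held 2. In that sum Dclk1 averaged 27.99 UMIs per 10000 over the 10 cells. Sums over cells outside those tried were not examined, so Dclk1 UMIs in other cells are not excluded by it. Trpm5, the cation channel of taste and tuft cell signalling, was placed by the wider search in 7 of the 10 cells, with 1 UMI in each of the cells 583, 698 and 1505, 3 in each of 845, 1470 and 4751, and 5 in 1808. Trpm5 was at 0.510 UMIs per 10000 in cluster 6 and was listed at 0 in all 11 other clusters. Sh2d6, an adaptor gene of tuft cells, was placed in 8 of the cells, with 6 UMIs in the cell 4751 and between 1 and 3 in the others. It was at 0.532 in cluster 6, compared with 0.00295 in cluster 2 and 0.00938 in cluster 7, the highest value elsewhere. Matk, a kinase gene of haematopoietic and tuft cells, was placed in 8 of the cells, with 26 UMIs in 4751 and 9 in 1505. Matk was at 1.05 in cluster 6, against 0 in clusters 2 and 7, at least 58.2-fold and at least 82.0-fold higher, while cluster 10 had 0.721.

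Most other tuft list genes that were solved were placed in the same cells. Of the list, 5 of 13 genes past the low-value filter were at least 2-fold higher in cluster 6 than in cluster 2 (7.03% of all genes), and 6 of 11 than in cluster 7 (10.8%). Dclk1, Matk, Trpm5 and Sh2d6 passed the filter only through cluster 6, which fixed their call as higher. These counts are therefore no support for the list. Over the mean of the others its median log2 fold was 0.50, with 0.09 for all genes. Against that mean, 6 of 16 tuft list genes were at least 2-fold higher (6.9% of all genes) and 3 were lower (6.83%), again as a description. The summed level of the list was 19.3 UMIs per 10000 in cluster 6, number 4 of the 12 clusters, and was highest in cluster 5 at 40.3. Ltc4s, the leukotriene C4 synthase, Nebl, an actin-binding protein, Plcg2, a phospholipase, and Fyb, an immune adaptor, each had 1 UMI outside the class cells in the sums taken. Krt23, a keratin, had most of its level outside them, in 3 UMIs. Rgs13, Plcb2, Gng13, Spib, Alox5, Siglecf, Hmx3, Ptgs1, Inpp5d, Gfi1b and Ly6g6f had none. In all, 21 of the 36 tuft list genes detected in cluster 6 were solved. The other list genes include Cd24a at 6.37 UMIs per 10000 in cluster 6, with 5.15 for cluster 2 and 5.13 for cluster 7, which crypt cells also express. Of the 3779 traced genes, 918 lay in 2 cells, 651 in 3 and 466 in 4. Among these, 18 had their UMIs in at least 2 of the tuft cells and nowhere else in cluster 6, of which 3 were in the list. Among the rest were Folr1, a folate receptor, with 9 UMIs, Il17rb, the receptor chain for IL-25, with 6, and Rasgrf2, an exchange factor for Ras, with 5. These 3 were named after their values were seen. Some of the 18 had only 2 UMIs in all. How many genes other sets of cells of this size hold in the same way was not counted, so the 18 are no measure of a shared programme.

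**Figure D2:**
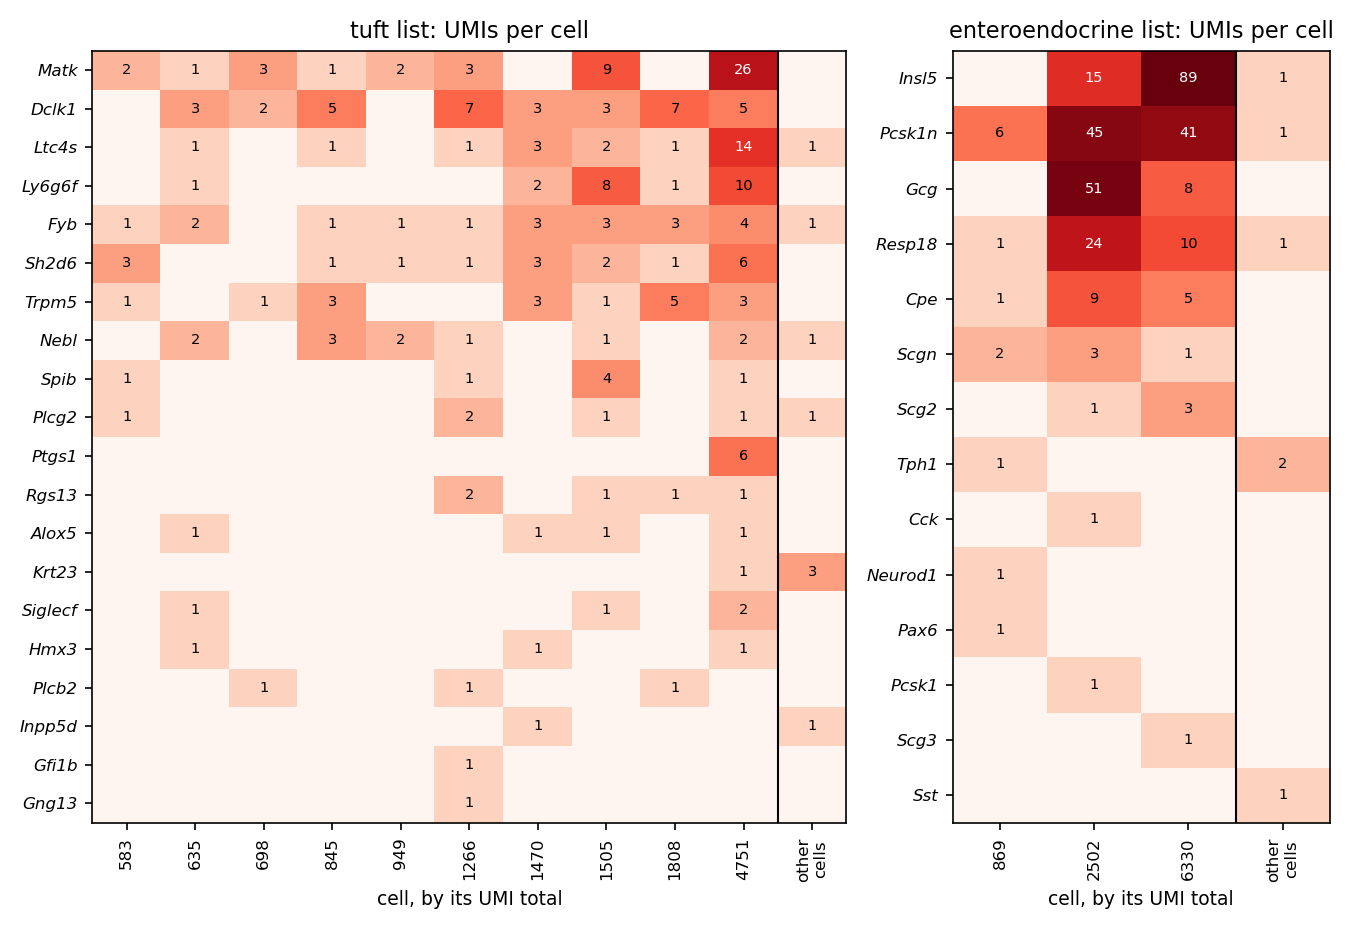
UMIs of genes of the tuft list (left, 20 of the 21 solved) and of the enteroendocrine list (right) in single cells of cluster 6. Columns are cells labelled by UMI total, the last column sums all other cells, cells of other classes included, and the number in a field is the UMI count. Dclk1 fills 8 of the 10 tuft columns, and Gcg and Insl5 lie in the cells 2502 and 6330.

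The 3 cells with enteroendocrine genes had totals of 869, 2502 and 6330 UMIs, and their hormone genes differed. Gcg, which encodes proglucagon, had 51 UMIs in the cell 2502 and 8 in the cell 6330. Insl5, an insulin-like peptide of colonic L cells, had 15 UMIs in 2502, 89 in 6330 and 1 in a cell outside the class. Pcsk1n, an inhibitor of the prohormone convertase, had 6 UMIs in 869, 45 in 2502, 41 in 6330 and 1 elsewhere. The cell 2502 was thus richer in Gcg and the cell 6330 in Insl5. Pyy, the peptide YY gene, was at 18.0 UMIs per 10000 in cluster 6, whereas cluster 2 was at 0.065 and cluster 7 at 0.127. Ppy, the pancreatic polypeptide gene, was at 12.6 in cluster 6, with 0.00269 for cluster 2 and 0.0106 for cluster 7. Pyy and Ppy were not traced to cells, so how much of their level lies in these 3 cells is not known. Cluster 11 was far above cluster 6 in both, with 842 for Pyy and 55.2 for Ppy.

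A single cell of 25479 UMIs held the plasma cell genes. Igkc, the kappa light chain, was at 13.8 UMIs per 10000 in cluster 6, while cluster 2 had 0.0172 and cluster 7 had 0.0456. In the only sum found, 8795 of its UMIs lay in this cell and 1 lay in each of 2 others. In that sum Igkc would be at 0.0316 without the class cells. Jchain, which joins IgA dimers, was at 3.16 in cluster 6, at least 175-fold above the level of 3 UMIs in cluster 2, and was at 0.00235 in cluster 7. One sum put 2020 UMIs of Jchain in the cell 25479, but sums with other numbers in that cell fitted too. Iglc2, the lambda light chain, had 58 UMIs there and none elsewhere. Igha, the heavy chain of IgA, was at 9.41 in cluster 6, compared with 0.0332 in cluster 2 and 0.039 in cluster 7, and was not traced. In the sum found for it, Igkc alone made up 34.5% of the UMIs of this cell. A cell of 2260 UMIs held 171 UMIs of Mcpt1 and 63 of Mcpt2, proteases of mucosal mast cells, with 4 of Fcer1a, a chain of the IgE receptor, and 3 of Cpa3, the mast cell carboxypeptidase. Mast cell list genes made up 10.9% of its UMIs. Reads shared between near-identical family members, such as those of Mcpt genes or immunoglobulins, may have been split or dropped in counting.

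Over all genes, cluster 6 ran close to cluster 2 and cluster 7. Across 3276 genes its Spearman rho, a description across genes of 1 table, was 0.870 with cluster 2 and 0.842 with cluster 7, 0.872 with cluster 1 and 0.424 with cluster 5, the other shallow cluster. Folds are on the scale log2(value + 0.1) and understate the change of low genes. Among 5065 genes with a mean of at least 0.25 in the pair, 356 (7.03%) exceeded cluster 2 by 2-fold or more in cluster 6, and 190 (3.75%) were lower in cluster 6 by the same margin. Against cluster 7, 565 of 5212 genes (10.8%) were higher and 496 (9.52%) lower. Against the mean of the 11 others, 359 of 5201 (6.9%) were higher and 355 (6.83%) lower. The median log2 fold over the genes compared was 0.08 against cluster 2, -0.02 against cluster 7 and 0.09 against the mean of the others. Cluster 6 had the highest value of 2481 genes, 221 of them at 1 or more per 10000. Such counts were not particular to it. Cluster 11 had the highest value of 3550 genes, 565 of them at 1 or more. Cluster 7 had 1956, with 429 at 1 or more, and cluster 2 had 699, with 81. In a shallow cluster 1 UMI gives a higher average, and its part in the 2481 was not tested.

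**Figure D3:**
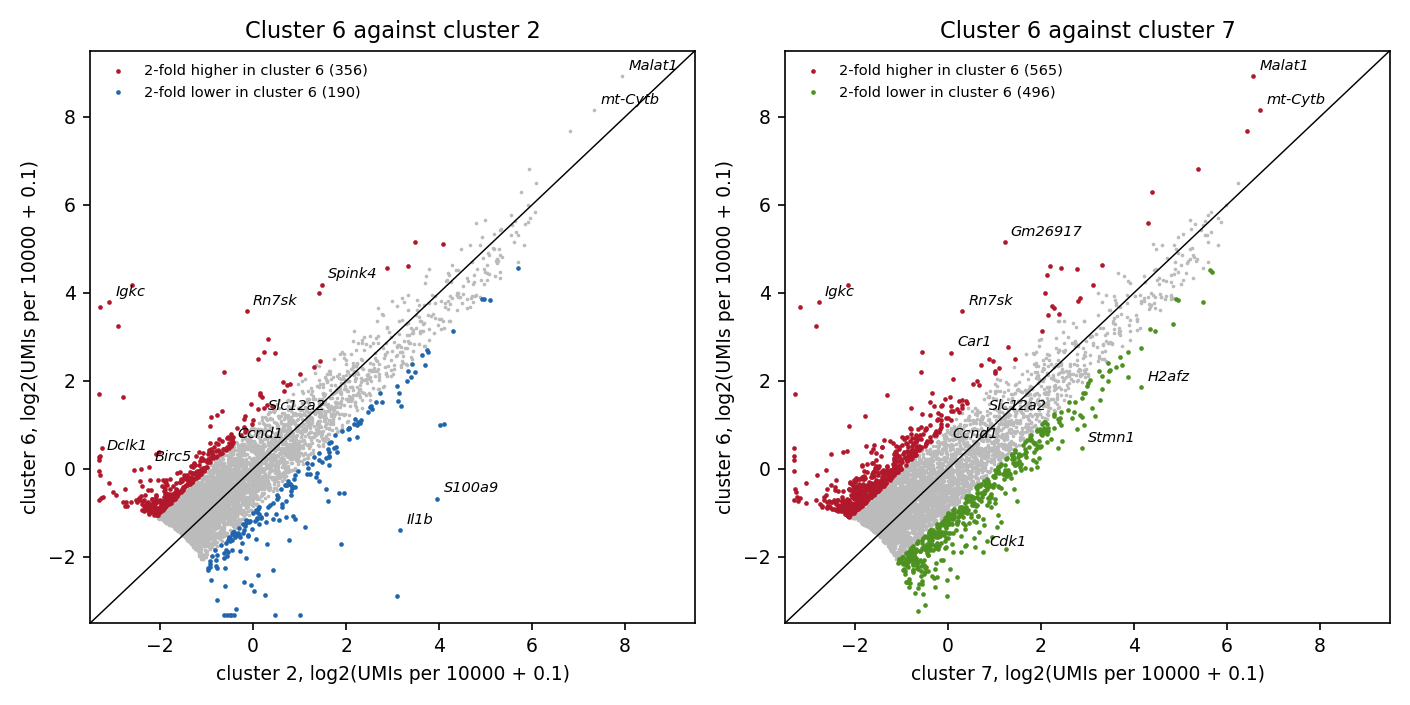
Values of cluster 6 (vertical) against cluster 2 (left) and cluster 7 (right), as log2(UMIs per 10000 + 0.1), for genes past the low-value filter. Red points are at least 2-fold higher in cluster 6 (356 and 565 genes), and blue or green points at least 2-fold lower (190 and 496 genes).

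Of the 1434 genes at 1 or more in cluster 6, 9 (0.628%) exceeded every other cluster by 2-fold or more. Igkc, Jchain and Dclk1 were placed in few cells above, and Igha belongs with Igkc and Jchain in plasma cells. The other 5 were Rn7sk, Gm26917, Prpf4b, Safb and Prrc2a. Gm26917, annotated in GENCODE M21 as a long noncoding RNA gene, was at 35.3 in cluster 6 (33.5 to 37.2), with 11.1 for cluster 2, 2.22 for cluster 7 and at most 12.6 elsewhere, in cluster 0. Gm42418, its neighbour on the same strand of chromosome 17, was also highest in cluster 6, at 23.7, with 12.1 in cluster 4. Which RNA the reads of both symbols come from was not tested. Prpf4b, a kinase gene of the splicing machinery, was at 2.23 in cluster 6 (1.80 to 2.73), with 0.486 for cluster 2 and 0.797 for cluster 7. Safb, which binds chromatin and RNA, was at 1.25 in cluster 6 (0.934 to 1.64), while cluster 2 had 0.415 and cluster 7 had 0.482. Prrc2a, an RNA-binding protein, was at 1.91 in cluster 6 (1.52 to 2.38), whereas cluster 2 was at 0.882 and cluster 7 at 0.806. Prrc2c, its paralog, was at 2.52 in cluster 6, with 1.07 for cluster 2 and 1.24 for cluster 7, just under the threshold over cluster 7.

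A stretch of Rn7sk is shown because an RNA of polymerase III carries no poly(A) tail of its own, while libraries of single cells are commonly primed on runs of A, and the priming of these libraries is not given in the labels. Its last 120 bases, which hold both of its longest runs of A, are printed below from GENCODE M21. The gene lies at chr9:78175303-78175633 on the minus strand of GRCm38 (mm10) and is annotated in GENCODE M21 as a misc_RNA of 331 nt. The stretch covers positions 212 to 331 of the RNA, at chr9:78175303-78175422, written 5′ to 3′ on the minus strand. The capitals mark the runs of A, 3 bases long, at 2 places.
Rn7sk: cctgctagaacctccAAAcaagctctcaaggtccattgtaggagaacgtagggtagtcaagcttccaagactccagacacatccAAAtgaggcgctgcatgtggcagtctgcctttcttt
The Rn7sk log2 fold in cluster 6 was 3.72 over cluster 2 and 3.28 over cluster 7.

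Malat1 and mitochondrially encoded RNA took a larger share of cluster 6 than of cluster 2 and cluster 7. Malat1, a long noncoding RNA retained in the nucleus, made up 4.85% of UMIs in cluster 6, with 2.44% for cluster 2 and 0.945% for cluster 7, and 4.76% in cluster 4. Neat1, the RNA scaffold of paraspeckles, was at 5.02 per 10000 in cluster 6, while cluster 2 had 2.47 and cluster 7 had 1.54, and was higher than in cluster 6 in cluster 8 at 11.2, cluster 4 at 8.42 and cluster 1 at 5.13. Kcnq1ot1, an imprinted antisense RNA, was at 0.962 in cluster 6, compared with 0.431 in cluster 2 and 0.388 in cluster 7. Since it is not stated that counting used strand, its reads cannot be told apart from those of Kcnq1. Mitochondrially encoded genes made up 8.05% of UMIs in cluster 6, with 4.55% for cluster 2, 2.95% for cluster 7 and 6.88% in cluster 1, the next highest. mt-Cytb, cytochrome b, was at 283 in cluster 6, with 160 for cluster 2 and 105 for cluster 7. mt-Nd1, a subunit of complex I, was at 206 in cluster 6, while cluster 2 had 112 and cluster 7 had 85.6. Of the mitochondrially encoded genes past the filter, 2 of 13 were at least 2-fold higher than in cluster 2, beside 7.03% of all genes, and 11 of 12 than in cluster 7, beside 10.8%. Their median log2 fold was 0.79 over cluster 2 and 1.36 over cluster 7. The 22 nuclear genes of oxidative phosphorylation had medians of -0.35 over cluster 2 and -0.27 over cluster 7, and 0 of 22 were 2-fold higher than in either. Ribosomal protein genes made up 18.2% of UMIs in cluster 6, with 22.7% for cluster 2 and 22.7% for cluster 7. Cluster 5, the shallowest, had 6.19% of its UMIs in mitochondrially encoded genes, 2.99% in Malat1 and 0.426 UMIs of Rn7sk per 10000. It is rich in neutrophil genes, with S100a9 at 442. Cluster 4, with a median of 10152 UMIs, had 6.55% in mitochondrially encoded genes. The part of depth and of cell type in these shares was not tested. Nor was the part of depth and of these shares in the other differences.

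**Figure D4:**
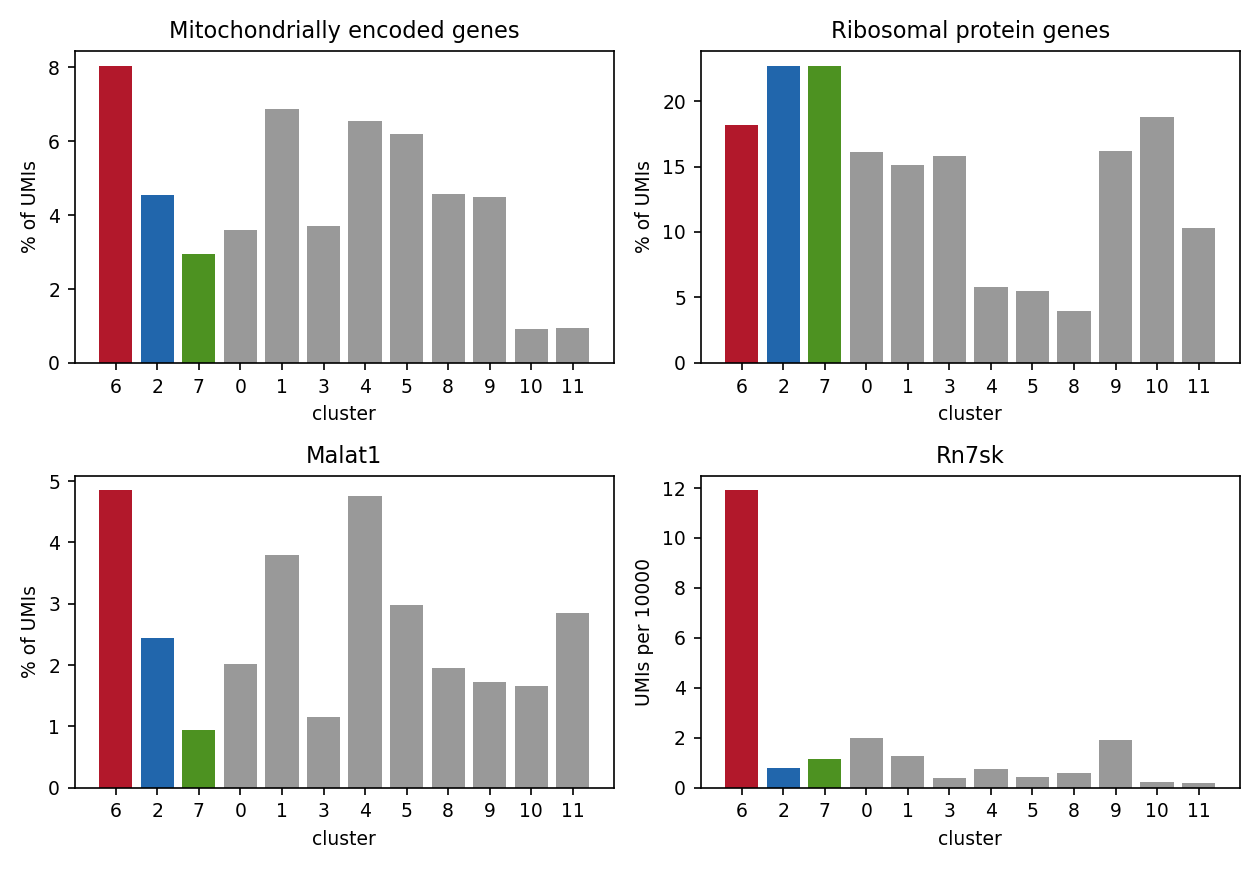
Share of UMIs in mitochondrially encoded genes, in ribosomal protein genes and in Malat1, and level of Rn7sk in UMIs per 10000, as bars for cluster 6, cluster 2, cluster 7 and the 9 other clusters. Cluster 6 has the tallest bar for the mitochondrial genes (8.05%), Malat1 (4.85%) and Rn7sk (11.9).

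Protein-coding genes higher in cluster 6 were longer at the median than those lower there. Of the 17044 symbols, 16392 (96.2%) were matched to GENCODE M21. All medians of length below are over protein-coding genes alone. These were 331 of the 356 genes higher than in cluster 2 and 4848 of the 5065 compared with it. The genes at least 2-fold higher in cluster 6 than in cluster 2 had a median span on the genome of 35.7 kb, against 11.6 kb for those lower in cluster 6 and 19.3 kb for all genes compared. Against cluster 7 the medians were 42.4 kb for the higher genes, 11.95 kb for the lower ones and 19.1 kb for all. The longest annotated transcripts had a median of 4.71 kb among the genes higher than in cluster 2, 1.88 kb among the lower ones and 2.96 kb among all. Long noncoding RNAs made up 3.13% of the matched genes higher than in cluster 2, 1.09% of the lower ones and 1.11% of all.

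Genes of stem cells and of the Wnt pathway were present in cluster 6, above cluster 2 in their summed level and nearer to cluster 7. Over the 18 stem list genes the summed level was 9.24 UMIs per 10000 in cluster 6, with 5.87 for cluster 2 and 8.96 for cluster 7. Over the 16 Wnt target genes it was 6.11 in cluster 6, with 3.63 for cluster 2 and 4.93 for cluster 7. Both sums were highest in cluster 5, rich in neutrophil genes, at 11.3 for the stem list and 10.7 for the Wnt targets. Cd44 was at 9.72 there. The marker Slc12a2, at 2.18 in cluster 6, is part of the stem sum, and the marker Ccnd1, at 1.37, is part of the Wnt target sum. The stem list had a median log2 fold of 0.92 over the mean of the others, beside 0.09 for all genes, and 6 of the 10 members past the filter were at least 2-fold higher (6.9% of all genes). Its median was 0.46 over cluster 2, beside 0.08 for all genes, and 0.10 over cluster 7, beside -0.02. Against cluster 2 the 2-fold higher members were 1 of 10, Ephb2 (7.03% of all genes), and against cluster 7 they were 0 of 10 (10.8%), with Smoc2 lower. Ephb2, an ephrin receptor that sorts cells along the crypt, was at 0.749 in cluster 6 (0.509 to 1.06), whereas cluster 2 was at 0.188 and cluster 7 at 0.504. Smoc2, a matrix protein of stem cells, was at 0.441 in cluster 6, with 0.704 for cluster 2 and 1.10 for cluster 7. Prom1, a membrane protein of crypt cells, was at 1.37 in cluster 6, while cluster 2 had 0.751 and cluster 7 had 1.17. Lgr5, the R-spondin receptor that marks cycling stem cells, was at 0.117 in cluster 6 (0.0372 to 0.276), compared with 0.0328 in cluster 2 and 0.115 in cluster 7. Its value in cluster 6 came from 1 UMI in each of 4 cells, with totals of 893, 1312, 1573 and 2404. At this depth a difference in Lgr5 between cluster 6 and cluster 7 was not detectable. Among Wnt target genes, 3 of 7 past the filter were at least 2-fold higher than in cluster 2, namely Ccnd1, Ephb2 and Myc, beside 7.03% of all genes. Myc, a driver of growth, was at 0.490 in cluster 6 (0.301 to 0.753), with 0.186 for cluster 2 and 0.232 for cluster 7. The secreted Wnt inhibitors Notum and Wif1 were listed at 0 in cluster 6. Against cluster 7, 0 of 7 were 2-fold different. Of the Notch list, Hes1, the main repressor induced by Notch, was at 3.40 in cluster 6, while cluster 2 had 3.90 and cluster 7 had 2.74.

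Cell cycle genes were lower in cluster 6 than in cluster 7, and some mitotic ones were higher than in cluster 2. Against cluster 7, 22 of 24 members past the filter were at least 2-fold lower, beside 9.52% of all genes, and the list's median log2 fold was -1.80, beside -0.02. Against cluster 2, 4 of 10 were at least 2-fold higher, beside 7.03% of all genes, and the median was 0.65, beside 0.08. Some members passed the filter through 1 column alone, which fixed their call in advance. Aurkb, at 0.00624 in cluster 6 and 0.538 in cluster 7, passed only through cluster 7. Birc5, Ube2c and Mki67 passed against cluster 2 only through cluster 6. The counts are therefore descriptions and no support. Birc5, survivin, which acts at the mitotic spindle, was at 0.921 in cluster 6 (0.653 to 1.26), whereas cluster 2 was at 0.111 and cluster 7 at 3.67. Ube2c, which feeds mitotic proteins to degradation, was at 0.892 in cluster 6, with 0.0885 for cluster 2 and 3.33 for cluster 7. Mki67, the antigen Ki-67, was at 0.726 in cluster 6, while cluster 2 had 0.0844 and cluster 7 had 1.47. Cenpf, a kinetochore protein, was at 0.742 in cluster 6, compared with 0.141 in cluster 2 and 0.952 in cluster 7. H2afz, a histone variant, was at 3.52 in cluster 6, with 4.27 for cluster 2 and 17.7 for cluster 7. Cdk1, the kinase of mitotic entry, was at 0.169 in cluster 6, while cluster 2 had 0.0532 and cluster 7 had 1.59. Birc5, Ube2c and Mki67 thus lay above cluster 2 and below cluster 7, while the value of Cenpf in cluster 7 lies within its interval in cluster 6 (0.504 to 1.05).

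**Figure D5:**
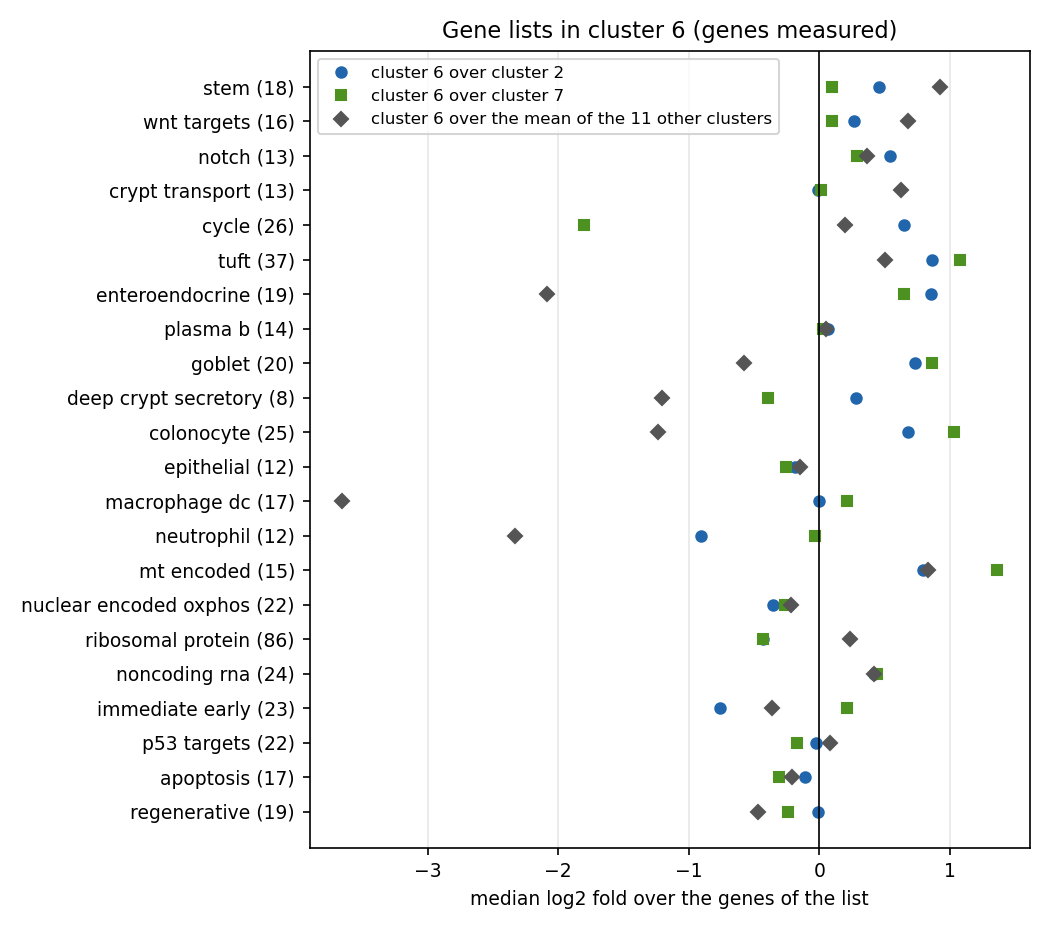
Median log2 fold of each gene list in cluster 6 over cluster 2 (circles), cluster 7 (squares) and the mean of the 11 other clusters (diamonds), with the number of genes measured in brackets. The cell cycle list lies at 0.65 over cluster 2 and at -1.80 over cluster 7, and the stem list at 0.92 over the mean of the others.

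Many genes of differentiated epithelium were above cluster 2 and cluster 7 in cluster 6, and far below the clusters where they peak. Of the goblet list, 5 of 12 genes past the filter were at least 2-fold higher in cluster 6 than in cluster 2, beside 7.03% of all genes. Against cluster 7, 9 of 14 were higher, beside 10.8%, and 1 was lower, beside 9.52%. Muc2, the gel-forming mucin, was at 5.55 in cluster 6 (4.86 to 6.32), with 0.968 for cluster 2, 1.74 for cluster 7 and 79.2 in cluster 0. Tff3, a trefoil peptide that protects mucus, was at 15.8 in cluster 6, with 2.56 for cluster 2, 4.13 for cluster 7 and 218 in cluster 0. Fcgbp, a mucus protein, was at 2.21 in cluster 6, with 0.786 for cluster 2, 0.191 for cluster 7 and 48.3 in cluster 0. Spink4, a protease inhibitor of goblet cells, was at 18.1 in cluster 6, whereas cluster 2 was at 2.68 and cluster 7 at 8.58. Agr2, a disulfide isomerase for mucin, went the other way, at 9.01 in cluster 6, with 13.6 for cluster 2 and 20.2 for cluster 7. Of the deep crypt secretory list, Reg4 was at 2.17 in cluster 6, while cluster 2 had 0.433 and cluster 7 had 2.25. Of the colonocyte list, 6 of 20 genes past the filter were higher than in cluster 2, beside 7.03% of all genes, with 1 lower, beside 3.75%. Against cluster 7, 11 of 20 were higher, beside 10.8%. Car1, a carbonic anhydrase of surface colonocytes, was at 6.14 in cluster 6, with 1.29 for cluster 2, 0.953 for cluster 7 and 74.4 in cluster 8. Saa1, serum amyloid A, was at 4.50 in cluster 6, with 0.547 for cluster 2, 0.565 for cluster 7 and 168 in cluster 8. Slc26a3, the chloride exchanger of the surface, was at 1.35 in cluster 6, compared with 0.777 in cluster 2 and 0.233 in cluster 7. Other colonocyte genes with high values were split against cluster 2. Lypd8, Muc3 and Car2 were lower, at 47.1, 10.2 and 5.13 in cluster 6, with 57.5, 12.2 and 10.6 for cluster 2. Prdx6 and Guca2a were higher, at 14.6 and 5.55 in cluster 6, with 9.04 and 3.24 for cluster 2. Whether these UMIs lie in whole cells of those types, are spread thinly or are free RNA was not tested.

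Of the list of ion transport genes of the crypt, 0 of 9 genes past the filter were 2-fold different from cluster 2, where 7.03% of all genes were higher and 3.75% lower. Against cluster 7, 1 of 9 was higher, beside 10.8% of all genes, and 0 were lower, beside 9.52%. These counts lie near the shares of all genes. That gene was Ano1, a calcium-gated chloride channel, at 0.734 in cluster 6, with 0.431 for cluster 2 and 0.242 for cluster 7. Cftr, the chloride channel of the apical membrane, was at 0.588 in cluster 6, while cluster 2 had 0.633 and cluster 7 had 0.453. Slc12a2 reached a log2 fold of 0.998 over cluster 2, just under 2-fold. Of 12 general epithelial genes, 0 differed 2-fold from cluster 2. Against cluster 7, 1 of 12 was lower, beside 9.52% of all genes, namely Cdx2, a transcription factor of intestinal identity, at 0.359 in cluster 6, with 0.599 for cluster 2 and 0.853 for cluster 7.

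Neutrophil genes were lower in cluster 6 than in cluster 2. All 4 neutrophil list genes past the filter were at least 2-fold lower than in cluster 2, where 3.75% of all genes were. Retnlg, at 0 in cluster 6 and 0.546 in cluster 2, passed the filter only through cluster 2, which fixed its call as lower. S100a9, a calcium-binding protein of neutrophils, was at 0.524 in cluster 6 (0.328 to 0.795), with 15.5 for cluster 2, 1.92 for cluster 7 and 442 in cluster 5. S100a8, its partner, was at 1.90 in cluster 6, whereas cluster 2 was at 16.2 and cluster 7 at 0.660. Il1b, interleukin 1 beta, was at 0.279 in cluster 6, with 8.86 for cluster 2, 0.587 for cluster 7 and 241 in cluster 5. Il1r2, its decoy receptor, was listed at 0 in cluster 6, at least 26.5-fold lower than in cluster 2 with 1.91. G0s2, an inhibitor of fat breakdown that neutrophils express, was at 0.0359 in cluster 6, with 8.38 for cluster 2 and 0.890 for cluster 7. Retnlg, Mmp9, Ngp and Camp were listed at 0 in cluster 6, as were Cd3e, Cd3d and Cd3g of T cells and C1qa and C1qc of macrophages. Over the 12 neutrophil list genes the summed level was 3.08 in cluster 6, with 41.7 for cluster 2, 3.61 for cluster 7 and 1160 in cluster 5, and its part in the difference from cluster 2 was not tested.

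Of the p53 target list, which responds to stress and radiation, 0 of 11 genes past the filter were at least 2-fold higher in cluster 6 than in cluster 2, beside 7.03% of all genes, and 2 were lower, Pmaip1 and Gdf15, beside 3.75%. Against cluster 7, 1 of 13 was higher, Mdm2, beside 10.8%, and 1 was lower, Bax, beside 9.52%. Cdkn1a, p21, which arrests the cycle, was at 1.51 in cluster 6 (1.16 to 1.93), while cluster 2 had 1.80 and cluster 7 had 1.11. Mdm2, the ligase that limits p53, was at 0.499 in cluster 6, compared with 0.299 in cluster 2 and 0.196 in cluster 7. Gdf15, a stress cytokine, was at 0.635 in cluster 6, with 1.68 for cluster 2 and 0.927 for cluster 7. Of immediate early and heat shock genes, 5 of 20 were lower than in cluster 2, beside 3.75% of all genes, and 0 were higher, beside 7.03%. Atf3, a stress transcription factor, was at 5.02 in cluster 6, while cluster 2 had 12.9 and cluster 7 had 5.29. Of genes tied to epithelial repair, 2 of 12 were lower than in cluster 2, Il1rn and Cyr61, beside 3.75% of all genes, and 1 of 12 was higher, beside 7.03%. The higher one was Ly6a (Sca-1), at 4.36 in cluster 6, whereas cluster 2 was at 1.90 and cluster 7 at 7.31.

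The name given to cluster 6, a mix of shallow crypt cells, was set beside these values. The clusters were drawn from these same genes, so this is a description and no test of the name. The low depth of cluster 6 and its cells of several classes were seen in the averages. Crypt genes were present but not particular to it. In the stem list 6 of 10 genes were 2-fold higher than the mean of the others, but the stem and Wnt target sums were highest in cluster 5. Of the crypt ion transport genes past the filter, 0 of 9 were 2-fold different from cluster 2. Dclk1, among the markers of cluster 6, was placed in 8 cells by a search limited to cells with tuft genes. Whether Dclk1 marks other cells of cluster 6 is therefore not known. Several lists stood out and no single one, so cluster 6 is left without a cell type.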

How the data were processed

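Libraries were processed with Cell Ranger 3.1.0 and Seurat 2.3 on mm10, per the submitters' processing notes. For chemistry, cell filters, doublets and clustering parameters the sources used here give nothing. The authors deposited 1 table of cluster averages in UMIs per 10000: each of the 12 columns sums to 10000, read from the values, and no column names a library. Depth was therefore recovered from the averages, as described with the results.

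From this table, cell numbers, UMI totals (whole within a relative tolerance of 1e-12, at least 2 genes for a total, none under 500) and sums over at most 4 cells (tolerance 6e-15) were computed with Python 3.11.15, numpy 2.4.6, pandas 2.3.3 and SciPy 1.17.1, and drawn with matplotlib 3.10.9. A total that is a whole part of a larger one was dropped where it had under 0.3 times as many genes behind it (0.15 times for parts smaller than 1 in 3). These cuts, and the extension of sums over cells that share list genes, were chosen after seeing the data, the cuts with the genes of some totals in view. A cell without an identified total can be misread as a larger number of UMIs in a cell whose total is a whole multiple. Poisson intervals use the harmonic mean of the totals and hold poorly for genes held by few cells. The steps were run on simulated data in which class genes lay in class cells alone. How often the search misplaces list genes that other cells hold too was therefore not tested.

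Folds use a pseudocount of 0.1, a mean of at least 0.25 in the pair and 1 or more for leading genes. A gene near 0 in 1 column of a pair passes only through the other column, so its call is fixed in advance. Counts of list genes past the filter are thus descriptions and no support. With 1 table and no replicates, nothing was tested. The members and the 29 gene lists were chosen with earlier results of these data known. Genes named are the 4 markers, those with the largest and smallest folds, up to 6 members of each list with the highest value and the highest values of the column. Others, among them Trpm5, Sh2d6, Iglc2, Lgr5, Myc, Mki67, Cdkn1a, Mdm2, Neat1 and the genes traced to class cells, were chosen after their values were seen. 1 solved gene of the tuft list is counted but not reported here by name or plotted.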

Additional observations from a re-analysis of the deposited data

How the results depend on the processing

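No paired analysis was possible because the columns do not separate the 2 libraries, so no library could be left out either. Of 94 alternative values, 72 stayed within 1.5 times of the reported value or within the matching log2 difference and 22 moved further. With a pseudocount of 1 the higher and lower genes numbered 27 and 36 against cluster 2, 48 and 66 against cluster 7, and 20 and 120 against the mean of the others, and the stem list's median was 0.20. Without a filter on low values they numbered 715 and 305 against cluster 2 and 551 and 643 against the mean of the others, 959 were higher than in cluster 7, and 43 genes led. At 4-fold they numbered 35 and 30, 48 and 32, and 13 and 144, and 5 genes led. The plasma cell list's mean over genes was 1.04, beside a median of 0.05. The cause of these shifts was not tested. Without the mitochondrially encoded genes 12 genes led, 9 of them shared, and the median of the mitochondrial list cannot be computed there.

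3 alternatives were chosen after seeing the data. Without the 50 genes that lose at least 50% of their value with the class cells, 6 genes led (Rn7sk, Prpf4b, Igha, Prrc2a, Gm26917 and Safb), and the medians over the mean of the others were -0.06 for the tuft list and -0.42 for the plasma cell list, below 0, which the removal of their highest genes lowers by construction. From sums over at most 4 cells alone, the class cells numbered 8. With all totals kept that are whole parts of others, 249 totals and 3716 traced genes were found, and the class cells numbered 17, with 10 for tuft, 4 for enteroendocrine, 2 for plasma and 1 for mast cells. The tuft count was the same, and the enteroendocrine and plasma counts each gained 1 cell. The low depth of cluster 6 limits single genes below about 0.0720 UMIs per 10000.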

Other observations

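Outside the lists of cell types, Cdkn1c and Bcl2 had their highest value of the 12 clusters in cluster 6. Cdkn1c, which encodes the cell cycle inhibitor p57, was at 0.877 UMIs per 10000 in cluster 6 (approximate Poisson 95% interval 0.616 to 1.21), with 0.0691 for cluster 2, 0.0623 for cluster 7 and 0.203 in cluster 11, the highest of the rest. It was not traced to cells, so it could be held by few of them. Bcl2, which protects cells from apoptosis, was at 0.565 in cluster 6 (0.360 to 0.844), with 0.0996 for cluster 2, 0.221 for cluster 7 and 0.421 in cluster 10, which lies within the interval of cluster 6. Xiap, an inhibitor of caspases, was at 0.833 in cluster 6, while cluster 2 had 0.3004, cluster 7 had 0.308 and cluster 8 had 0.883. The list of 17 apoptosis genes did not follow Bcl2 and Xiap as a whole. Its summed level was 9.72 in cluster 6, with 10.3 for cluster 2 and 13.2 for cluster 7. Its median log2 fold was -0.21 over the mean of the others, beside 0.09 for all genes. Cycs, at 2.33 in cluster 6, and Bax, at 1.20, were below cluster 2 (3.38 and 1.58) and cluster 7 (5.32 and 2.62).

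Cluster 6 also held a few deep cells, with totals of 39401, 33023, 25479, 19839 and 17266 UMIs. The cell 25479 is the one with plasma cell genes, and 89 genes lay in it alone, among them Ccr10, a homing receptor of IgA plasma cells, with 17 UMIs. The cell 33023 alone held 55 genes, led by Mt4 with 7 UMIs, Ido1 with 6 and Scel with 4. The cell 39401 alone held 57 genes, none with more than 2 UMIs.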
